A study of Rattus norvegicus with 29 samples.

Results

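The open chromatin around Bdnf was followed in 4 regions of the adult rat brain, with and without methamphetamine. A window of 200 kb on chromosome 3 of rn6 (chr3:100700000-100900000) was laid around the gene, which lies at about 100.77 to 100.82 Mb, and every open chromatin region (OCR, an interval of the deposited count table) that overlapped it was taken. This gave 10 of the 98237 OCRs of the table, numbered OCR 1 to OCR 10 in order along the chromosome. The choice among the OCRs of the table rests on position alone and not on any measured value. The table itself was merged from peaks called in these same libraries, so an interval could enter it through the regions where it is most open.

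Bdnf encodes brain-derived neurotrophic factor, a secreted neurotrophin that acts through the receptor TrkB and supports survival, growth and synaptic plasticity of neurons. The gene has several 5′ exons, each with a promoter of its own and spliced to a shared coding exon, and part of its transcription follows neuronal activity through factors such as CREB. In the hippocampus it is well known as an activity-regulated gene of excitatory neurons, while in the striatum much of the protein arrives from cortical afferents.

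The measure was ATAC-seq, a method that inserts sequencing adapters into accessible DNA with a transposase, in 29 libraries of bulk tissue from adult male Sprague-Dawley rats. METH rats received 4 intraperitoneal injections of methamphetamine hydrochloride at 10 mg/kg and control rats received saline at 1 mL/kg, both at intervals of 2 h, and tissue was taken on the day after the last injection. The nucleus accumbens (NAc), dentate gyrus (DG) and the CA fields of the hippocampus (CA) had 4 saline and 4 METH libraries each, and the subventricular zone (SVZ) had 3 saline and 2 METH libraries. NAc and SVZ were punched from frozen slices while DG and CA were dissected freely, and in such bulk tissue fewer cells of a type and less open chromatin per cell cannot be told apart. The labelled regions were not checked against marker genes here, since no gene annotation of rn6 was used.

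Total counts in OCRs ran from 7.55 M to 19.4 M per library. The share of counts in the 10% of OCRs with the highest means, called the top-decile share below, ran from 45.4 to 62.5%, and it was highest in DG METH replicate 1. The library names inside the peak lists come in 2 spellings, called name sets 1 and 2 here, whose meaning the sources do not state. The names also show 8 animals, each of which gave a NAc, a DG and a CA library, and the SVZ libraries came from some of the same animals, so libraries of different regions are not independent animals.

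RefSeq lists 6 Bdnf transcription starts in the promoter table used here, all on the plus strand of chromosome 3 in the assembly GRCr8. Their positions cannot be set against the OCRs, which are given in rn6, so which OCR holds which promoter was not analysed. The 250 bases before 3 of the starts are shown 5′ to 3′, with matches to the searched letters in capitals. Start 1 (chr3:116619383-116619632) is the first of the gene, and start 4 (chr3:116637608-116637857) holds a CRE half-site. Start 3 (chr3:116621721-116621970) holds a match to TGANTCA, a loose form of AP-1 that leaves the central base free. The match has A at that base, where the AP-1 consensus has C or G, so it is not a consensus AP-1 site.
start 1: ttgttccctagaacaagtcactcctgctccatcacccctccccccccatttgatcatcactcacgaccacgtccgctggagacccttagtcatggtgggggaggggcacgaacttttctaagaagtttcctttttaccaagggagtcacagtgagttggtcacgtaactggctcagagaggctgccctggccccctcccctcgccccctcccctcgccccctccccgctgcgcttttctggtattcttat
start 3: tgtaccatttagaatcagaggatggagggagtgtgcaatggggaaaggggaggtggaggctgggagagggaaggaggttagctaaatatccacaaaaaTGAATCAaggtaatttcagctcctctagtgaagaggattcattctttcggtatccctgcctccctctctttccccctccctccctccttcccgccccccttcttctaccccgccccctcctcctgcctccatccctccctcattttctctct
start 4: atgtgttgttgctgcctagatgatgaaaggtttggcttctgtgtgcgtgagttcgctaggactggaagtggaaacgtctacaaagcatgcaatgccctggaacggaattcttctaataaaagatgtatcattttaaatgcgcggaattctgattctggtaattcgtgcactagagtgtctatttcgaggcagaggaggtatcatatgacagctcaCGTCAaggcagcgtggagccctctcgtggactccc

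Between the TGANTCA match of start 3 (TGAATCA) and that start lay 145 bases, and between the CRE half-site of start 4 (CGTCA) and its start lay 30 bases. The letters were searched on both strands in the 250 bases before each start: TGANTCA (loose, called the AP-1 letters below), CGTCA for the CRE half-site, TGACGTCA for the full CRE (which contains the half-site), GCGTGGGCG for Egr factors and CAGATG for NeuroD1. Among all 33469 promoters of the table, 6.34% held the AP-1 letters, 18.2% the CRE half-site, 1.59% the full CRE, 0.478% the Egr letters and 14.0% the NeuroD1 letters. Of the 6 Bdnf starts 1 held the AP-1 letters, 1 the CRE half-site and 0 any of the other 3. GC content was 57.6% before start 1, 53.2% before start 3 and 46.8% before start 4, around the median of 51.2% for all promoters of the table. In the gene order of the same assembly, Kif18a precedes Bdnf and Lin7c follows it.

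The 10 OCRs covered 6972 bp of the window. OCR 1 (chr3:100721530-100722329), OCR 2 (chr3:100734457-100735334) and OCR 3 (chr3:100768047-100768347) lay below the approximate span of the gene. OCR 4 (chr3:100770898-100772657), OCR 5 (chr3:100786684-100787041), OCR 6 (chr3:100787588-100788394), OCR 7 (chr3:100789135-100789496), OCR 8 (chr3:100791713-100792126) and OCR 9 (chr3:100804796-100805546) lay within it, and OCR 10 (chr3:100859317-100859857) lay above it. OCR 4 was 1760 bp long, at the 99.0th percentile of OCR length, while the median was 646 bp in the window and 662 bp in the table. OCR 5, OCR 6 and OCR 7 sat close together, with gaps of 546 and 740 bp between them. Outside the window, the next OCR lay 106 kb below OCR 1 and 146 kb above OCR 10. How common such gaps are in the table was not computed. A 200-kb stretch of the table held a median of 5 OCRs, and 29.3% of stretches held at least 10.

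In saline rats the window had a higher mean accessibility in DG and CA than in NAc and SVZ. The summed accessibility of the 10 OCRs, in CPM (the counts-per-M unit, with each library's total scaled by its upper quartile), was 71.8 ± 8.67 CPM (SD, n = 4) in DG and 58.0 ± 33.3 CPM (SD, n = 4) in CA. It was 17.1 ± 9.25 CPM (SD, n = 4) in NAc and 16.1 ± 4.82 CPM (SD, n = 3) in SVZ. The 4 DG saline libraries lay between 59.1 and 78.2 CPM and did not overlap the NAc saline libraries, which lay between 9.86 and 29.4 CPM, or the SVZ saline libraries, which lay between 10.9 and 20.3 CPM. CA saline was spread from 20.4 CPM in replicate 2 to 93.3 CPM in replicate 3, so its lowest library reached into the range of NAc.

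**Figure D1:**
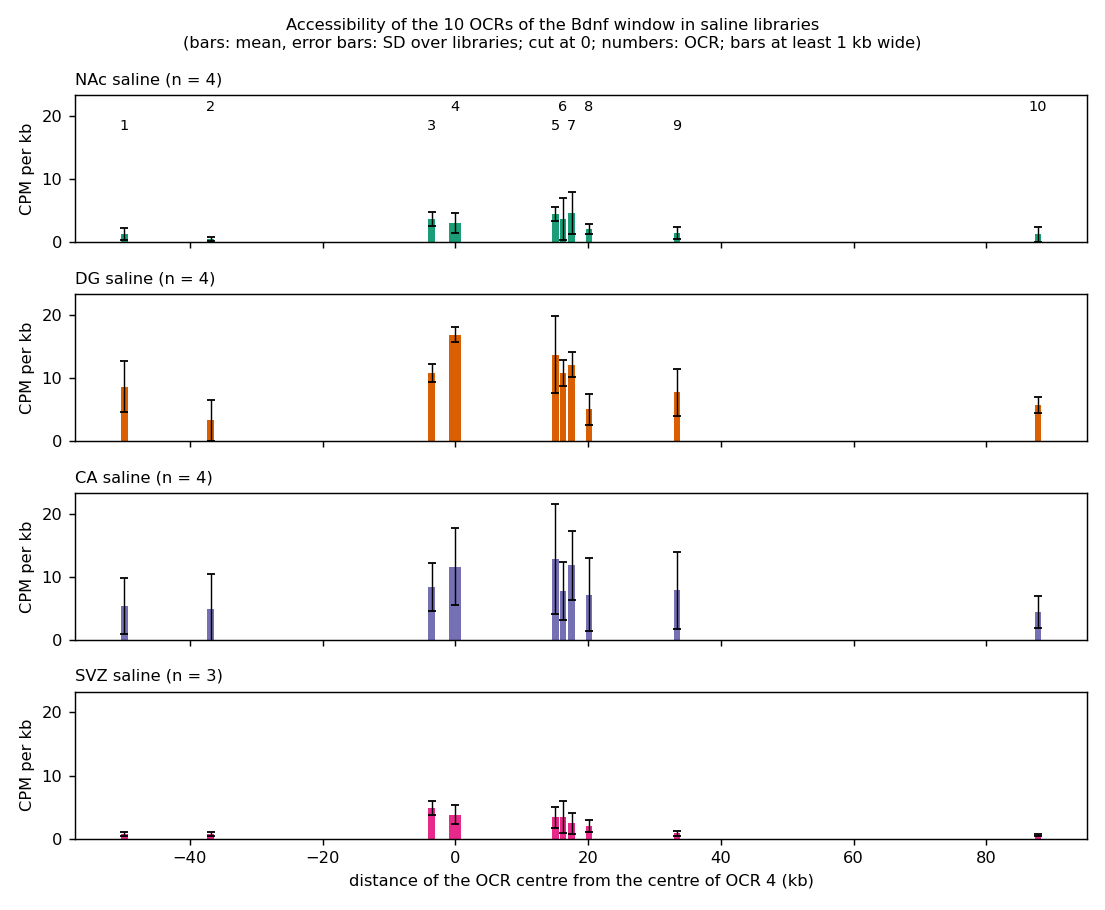
Mean accessibility of the 10 OCRs in saline libraries of each region (y axis, CPM per kb of OCR) against the distance of each OCR from the centre of OCR 4 (x axis, kb), with SD over 4 libraries, or 3 in SVZ. Bars are taller in DG and CA than in NAc and SVZ at all 10 OCRs, and OCR 4 is at 16.9 CPM per kb in DG against 3.09 in NAc.

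OCR 4, the longest interval, was the most accessible of the 10 per unit of length in the mean over the 29 libraries, at 9.50 CPM per kb against a median of 7.07 for all OCRs. Among the saline groups it led in DG only. OCR 5 was higher in CA (12.9 against 11.6 CPM per kb), OCR 7 in NAc (4.63 against 3.09) and OCR 3 in SVZ (4.88 against 3.83). In saline rats OCR 4 held 30.1, 31.3, 26.5 and 30.8 CPM in DG replicates 1 to 4, and 16.1, 7.42, 30.7 and 27.3 CPM in CA. In NAc it held 3.12, 8.66, 6.68 and 3.31 CPM, and in SVZ 7.39, 8.95 and 3.90 CPM. All DG libraries lay above all NAc and SVZ libraries, while CA replicate 2 was below NAc replicate 2. Ranked by CPM per kb among all OCRs of the same region, OCR 4 stood at the 85.0th percentile in DG, but at percentile 73.8 in CA, 16.3 in SVZ and 13.0 in NAc.

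OCR 1, about 50 kb from OCR 4 on the lower side, showed the widest contrast between DG and SVZ. It held 6.48, 5.48, 4.12 and 11.6 CPM in the DG saline libraries and 3.46, 1.90, 2.47 and 9.60 CPM in CA. It held 0.974, 2.04, 0.818 and 0.385 CPM in NAc and 0.317, 0.782 and 0.591 CPM in SVZ. Every DG library was above every NAc and SVZ library, and CA overlapped both DG and NAc. Its percentile was 59.9 in DG, 32.8 in CA, 2.55 in NAc and 0.292 in SVZ, so that in NAc and SVZ it was among the least open intervals of the table.

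OCR 9, at the upper end of the gene span, was also higher by its means in DG and CA, with 5.81 ± 2.78 CPM (SD, n = 4) in DG and 5.90 ± 4.58 CPM (SD, n = 4) in CA against 1.12 ± 0.754 CPM (SD, n = 4) in NAc and 0.637 ± 0.299 CPM (SD, n = 3) in SVZ. OCR 10, beyond the gene, held 3.08 ± 0.697 CPM (SD, n = 4) in DG, 2.42 ± 1.37 CPM (SD, n = 4) in CA, 0.679 ± 0.660 CPM (SD, n = 4) in NAc and 0.333 ± 0.113 CPM (SD, n = 3) in SVZ. OCR 5, in the cluster inside the gene, held 4.89 ± 2.18 CPM (SD, n = 4) in DG and 4.61 ± 3.11 CPM (SD, n = 4) in CA, and 1.61 ± 0.405 CPM (SD, n = 4) in NAc and 1.21 ± 0.591 CPM (SD, n = 3) in SVZ. By its means OCR 8 was higher in CA, at 2.98 ± 2.38 CPM (SD, n = 4), than in DG, at 2.08 ± 1.04 CPM (SD, n = 4), as OCR 2 and OCR 9 also were, and in each case by less than the spread.

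To ask whether the 4 regions differed at all, edgeR's quasi-likelihood F test was fitted to the 15 saline libraries over all 98237 OCRs. At a false discovery rate (FDR) under 0.01 it called 3 of the 10 OCRs, against 7.51% of all OCRs. These were OCR 4 (FDR 0.000887), OCR 1 (FDR 0.00137) and OCR 9 (FDR 0.00386), and the highest FDR of the other 7 was 0.153, at OCR 6. OCR 1 and OCR 9 had called peaks in DG or CA libraries only. Their entry into the table therefore already favoured those regions. An unadjusted p under 0.05 was found at all 10, and at 24.4% of all OCRs. OCR 4 and OCR 1 were called in each of the 15 fits that left out 1 library. OCR 9 lost its call without NAc saline replicate 3 or 4 or SVZ saline replicate 2 or 3, and without CA saline replicate 2 the number called was 6. That fit called 9549 of all OCRs, against 7375 in the main fit.

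The estimate for NAc against DG was below 0 at all 10 OCRs, and at 57.7% of all OCRs, with a median log2 fold change of -1.88 where the median of all OCRs was -0.08. At an FDR under 0.01 and a log2 fold change beyond 1 in either direction, 2 of the 10 were called, against 6.23% of all OCRs, and 1.49% for the lower direction alone. They were OCR 1, with a log2 fold change of -2.74 (SE 0.56, edgeR FDR 0.00363), and OCR 4, with -2.45 (SE 0.41, edgeR FDR 0.000946). All NAc saline libraries lay below all DG saline libraries at 6 of the 10 OCRs, which was the case at 8.72% of all OCRs. Of these 6, OCR 1, OCR 3, OCR 9 and OCR 10 had called peaks in DG or CA libraries only. The counts are therefore not independent of how these OCRs came to be in the table. The call at OCR 1 was lost without NAc saline replicate 1, 3 or 4 or DG saline replicate 4. OCR 4 stayed called whichever of the 15 libraries was left out.

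Against CA saline, NAc saline also had estimates below 0 at all 10 OCRs, and at 52.7% of all OCRs, with a median of -1.77 against -0.04 for all OCRs, and 1 of the 10 was called, against 7.04% of all OCRs. It was OCR 4, with a log2 fold change of -1.91 (SE 0.41, edgeR FDR 0.00403), and the call was lost without NAc saline replicate 1, 3 or 4 or CA saline replicate 3. Without CA saline replicate 2, the library with the lowest sum in that group, 4 of the 10 were called. The share of all OCRs called in that fit is not given here. At 2 of the 10 OCRs all NAc libraries lay below all CA libraries, against 4.46% of all OCRs. These were OCR 2 and OCR 3, which had called peaks in DG or CA libraries only.

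SVZ against DG gave estimates below 0 at all 10 OCRs, and at 54.0% of all OCRs, with a median log2 fold change of -2.16 against -0.04 for all OCRs. At OCR 1 the log2 fold change was -3.58 (SE 0.68, edgeR FDR 0.00527), the largest in the window, and at OCR 4 it was -2.13 (SE 0.45, edgeR FDR 0.00957). These 2 of the 10 were called, against 2.03% of all OCRs, and at 8 of the 10 all SVZ libraries lay below all DG libraries, against 8.83% of all OCRs. OCR 1 had called peaks in DG or CA libraries only, and only OCR 4 had one in an SVZ saline library. These counts are therefore not independent of how the intervals came to be in the table. OCR 1 lost its call without DG saline replicate 1, 2 or 4 or any of the 3 SVZ saline libraries. OCR 4 kept its call only without CA saline replicate 2, 3 or 4, and with the animal as a block 1 of the 10 was called. With that block, calls over all OCRs are not given here. Against CA saline, the SVZ estimates were below 0 at all 10, and at 53.5% of all OCRs, with a median of -2.07 against -0.04 for all OCRs, and 0 of the 10 were called, against 2.69% of all OCRs. An unadjusted p under 0.05 was found at 8 of the 10 in that comparison and at 21.9% of all OCRs. There DESeq2 called 5, and edgeR called 3 without CA saline replicate 2. For these fits, calls over all OCRs in that comparison are not given here. In the test of any difference both called more of all OCRs, 14483 and 9549, against 7375 in the main fit.

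By the means at OCR 4 the saline order was DG, CA, SVZ and NAc, and no pair of neighbours in it passed the test at that OCR, where CA to SVZ had the lowest edgeR FDR of the 3 pairs, 0.0342. DG against CA gave 0 calls of 10, where 0% of all OCRs were called, with log2 fold changes from -0.57 to 0.66 and unadjusted p under 0.05 at 0 of the 10 and 0.893% of all OCRs. NAc against SVZ gave 0 calls of 10, where 0% of all OCRs were called, with log2 fold changes from -0.39 to 1.00 and unadjusted p under 0.05 at 0 of the 10 and 3.81% of all OCRs. DESeq2 also called 0 in both comparisons. At OCR 4 the interval of the DG to CA difference ran from -0.27 to 1.35 on the log2 scale, and it included 1, a 2-fold higher level in DG.

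Each region was then set against the mean of the 3 others. OCR 1 and OCR 4 were called for DG, with log2 fold changes of 2.33 (SE 0.41, edgeR FDR 0.00940) and 1.71 (SE 0.30, edgeR FDR 0.00940), so that 2 of the 10 were called against 0.155% of all OCRs. Both sat close to the threshold: of the 15 fits that left out 1 library, both were called only without CA saline replicate 2 or 4, 1 of them without CA saline replicate 3, and 0 of the 10 without any one of the other 12 libraries. OCR 1 had called peaks in DG or CA libraries only, so its entry into the table already favoured them. TMM scaling gave 0 of the 10, with log2 fold changes of 2.31 and 1.68, and DESeq2 gave 4. How many of all OCRs these alternatives called is not given here. The other 8 OCRs were also above 0 for DG, as were 56.3% of all OCRs, and the median was 1.30 against 0.05 for all OCRs.

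For CA, 0 of the 10 were called against 0.0814% of all OCRs, although all 10 were above 0, as were 50.7% of all OCRs, with a median of 1.26 against 0.01 for all OCRs. The largest log2 fold change was at OCR 2, at 2.13 (SE 0.61, edgeR FDR 0.0495). OCR 2 held 2.49, 0.722, 11.5 and 2.48 CPM in CA saline and 3.43, 0.365, 6.70 and 1.17 CPM in DG saline, against 0.682, 0.509, 0.682 and 0.154 CPM in NAc and 0.528, 0.434 and 0.945 CPM in SVZ. CA replicate 3 stood far above the other CA libraries, whose values reached into the ranges of DG and SVZ, and leaving it out lowered the log2 fold change to 0.96. DESeq2 called 1 of the 10 for CA, and edgeR called 1 without CA saline replicate 2. Shares of all OCRs called in these fits are not given here.

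For NAc and SVZ all 10 OCRs were below 0, as were 55.5% and 52.1% of all OCRs, with medians of -1.01 and -1.50, against -0.07 and -0.02 for all OCRs. Only OCRs above the other regions count as calls in this comparison, and 0 of the 10 were called in NAc, against 4.66% of all OCRs, and 0 in SVZ, against 0.399%. OCR 4 in NAc had a log2 fold change of -1.56 (SE 0.36, edgeR FDR 0.00872), on the lower side. The least negative values were those of OCR 7 in NAc, at -0.62 (SE 0.44, edgeR FDR 0.456), and OCR 3 in SVZ, at -0.51 (SE 0.41, edgeR FDR 0.660). OCR 3, a short interval just below OCR 4, held 1.27, 1.32, 1.30 and 0.617 CPM in NAc saline and 1.16, 1.82 and 1.42 CPM in SVZ saline. In DG saline it held 3.34, 2.65, 3.40 and 3.66 CPM and in CA saline 1.73, 1.38, 3.78 and 3.21 CPM, so the hippocampal ranges lay higher and only CA replicates 1 and 2 overlapped SVZ.

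Peak calls, made by the authors in each library separately, were also more frequent in DG and CA libraries over most of the 10 OCRs, though they come from the same reads as the counts. Counted over METH and saline libraries together, OCR 4 carried a peak in 21 of 29 libraries: 8 of 8 in CA, 7 of 8 in DG, 3 of 8 in NAc and 3 of 5 in SVZ. OCR 7 carried one in 18, OCR 6 in 16 and OCR 5 in 14, with 2 of 8 NAc libraries at each. OCR 1, OCR 2, OCR 3, OCR 8, OCR 9 and OCR 10 had a peak in DG or CA libraries only, in 12, 7, 2, 5, 12 and 8 libraries. Since the table was merged from such peaks, these OCRs entered it through DG or CA. Their higher levels there than in NAc and SVZ are therefore not independent of how the intervals came to be in the table. In saline libraries alone, DG had more libraries with a peak than CA at OCR 1 (4 against 2), OCR 6 (4 against 3) and OCR 10 (3 against 1). The peaks over OCR 4 had fold enrichments over background of 3.84 to 8.73 with a median of 6.03 and a highest −log10 q of 86.3. Their summits were spread over the interval, from position 100771370 to 100772288, and single libraries held up to 2 peaks in it. The highest fold enrichment of the window was at OCR 2, 16.6 in CA METH replicate 3, followed at that OCR by 14.0 in CA saline replicate 3. Numbers of peaks per library ran from 50732 to 125177, highest in CA METH replicate 4, and their part in the shares was not tested.

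**Figure D2:**
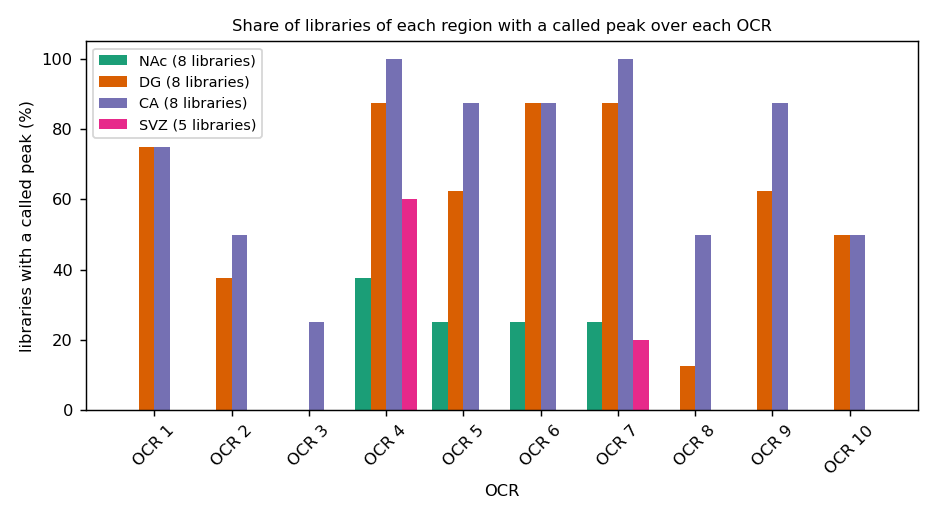
Share of libraries of each region, METH and saline together (y axis, %), in which a called peak overlapped each of the 10 OCRs (x axis); an absent bar is a share of 0. With both treatments counted, the CA bar is the highest or level with the DG bar at all 10 OCRs, though in saline libraries alone DG had more at OCR 1, OCR 6 and OCR 10. NAc has bars at OCR 4 to OCR 7 only and SVZ at OCR 4 and OCR 7 only.

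METH against saline passed the test at 0 of the 10 OCRs in each region. The rule was a fold change above 1.5 with an FDR under 0.001 in edgeR's quasi-likelihood test on all 29 libraries. The counts were 0 in NAc, DG, CA and SVZ, where 0% of all OCRs were called in each region. An unadjusted p under 0.05 was found at 0 of the 10 in NAc (2.45% of all OCRs), 0 in DG (9.84%), 0 in CA (0.820%) and 1 in SVZ (3.47%). DESeq2 called 0 of the 10 in each region, and each region also gave 0 calls without any one of its libraries. With 5 factors of unwanted variation estimated from residuals (RUVr) as covariates, 1 of the 10 was called in DG, where 4612 of all OCRs were, and 0 in the other regions.

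**Figure D3:**
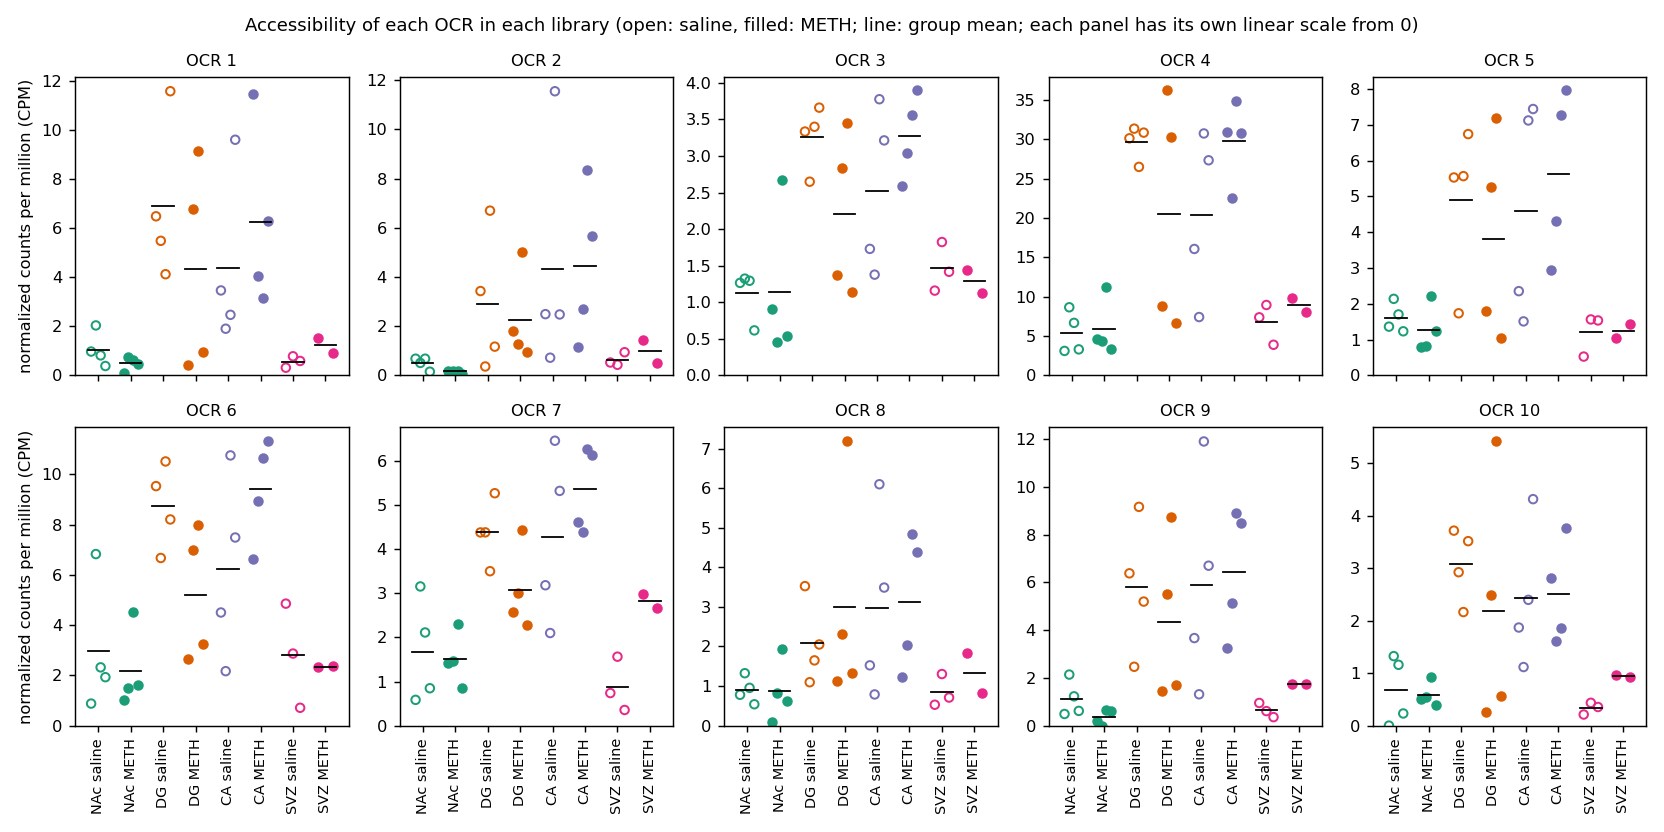
Accessibility of each OCR in each of the 29 libraries (y axis, CPM, scale from 0 in each panel) by group (x axis), open circles for saline, filled circles for METH and lines for group means. At OCR 4 the DG METH libraries split into 36.2 and 30.3 CPM on one side and 8.86 and 6.67 CPM on the other, while DG saline stays between 26.5 and 31.3 CPM.

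In DG the METH libraries parted into an open and a less open pair. OCR 4 held 8.86, 36.2, 30.3 and 6.67 CPM in DG METH replicates 1 to 4, beside the DG saline values of 30.1, 31.3, 26.5 and 30.8 CPM. Replicates 1 and 4 were below all saline libraries, replicate 2 was above all of them and replicate 3 was among them. The log2 fold change at OCR 4 was -0.53 (SE 0.45, edgeR FDR 0.590), and it ran from -0.96 without METH replicate 2 to -0.24 without METH replicate 4. With 5 RUVr factors it was -0.74 and OCR 4 was past the rule.

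OCR 6, in the cluster inside the gene, had the largest METH change of the window in DG, a log2 fold change of -0.74 (SE 0.53, edgeR FDR 0.540). It held 2.67, 6.97, 7.98 and 3.24 CPM in DG METH and 9.53, 6.67, 10.5 and 8.20 CPM in DG saline. Replicates 1 and 4 again lay lowest, replicates 2 and 3 overlapped the saline libraries, and all 4 METH libraries were below the saline mean. Of the 10 OCRs, 9 were below 0 in DG, as were 60.1% of all OCRs, with a median of -0.51 against -0.15 for all OCRs. The exception was OCR 8, at 0.52 (SE 0.67).

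The DG estimates were also fitted with other scalings, and what part scaling has in them was not tested. The median of all OCRs in DG moved from -0.15 to -0.09 with TMM and to 0.01 with loess offsets, and the median of the 10 moved from -0.51 to -0.47 and -0.24, with 9 and 8 of the 10 below 0. The top-decile share was 62.5% in DG METH replicate 1 and 57.0% in replicate 4, the pair with low values, but 59.0% in replicate 2 and 47.1% in replicate 3, and it ran from 47.3 to 58.1% in DG saline. With this share as a covariate the median of the 10 was -0.38 and 6 of the 10 were below 0. The part of the top-decile share in the result was otherwise not tested. Within name set 1 alone the median was -0.47 and within name set 2 alone -0.52. The median was -0.93 without METH replicate 3 and -0.21 without METH replicate 4.

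In CA all 10 estimates were above 0, as were 53.4% of all OCRs, with a median of 0.31 against 0.02 for all OCRs, while with loess offsets or DESeq2 1 of the 10 was below 0 and within name set 2 alone 4 were. OCR 6 had the largest, a log2 fold change of 0.60 (SE 0.52, edgeR FDR about 1.000). It held 6.63, 8.95, 10.7 and 11.3 CPM in CA METH and 4.50, 2.17, 10.8 and 7.48 CPM in CA saline. METH values lay above the saline mean in all 4 libraries, but saline replicate 3 was within the METH range and the groups overlapped. OCR 4 held 30.9, 22.5, 34.8 and 30.7 CPM in CA METH and 16.1, 7.42, 30.7 and 27.3 CPM in CA saline, a log2 fold change of 0.55 (SE 0.45, edgeR FDR about 1.000). Saline replicates 1 and 2 were the low ones. Without saline replicate 2 the median of the 10 was 0.05, and it was 0.81 within name set 1 alone and 0.04 within name set 2 alone.

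The difference between the DG and CA effects was tested as an interaction. It called 0 of the 10, where 0% of all OCRs were called, and its estimate was below 0 at 9 of the 10 OCRs and 60.2% of all OCRs, with a median of -0.75 against -0.20 for all OCRs. OCR 6 had -1.34 (SE 0.75, edgeR FDR 0.547) and OCR 4 -1.08 (SE 0.64, edgeR FDR 0.552), and an unadjusted p under 0.05 was found at 0 of the 10, against 8.48% of all OCRs. The median was -0.49 without CA saline replicate 2 and -1.20 without DG METH replicate 3, and it was -1.38 within name set 1 and -0.43 within name set 2. With the animal as a block, which each DG and CA pair shares, it was -0.997 and 0 of the 10 were called. With 5 RUVr factors 1 of the 10, OCR 4 at -1.35, was called among 4197 of all OCRs.

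**Figure D4:**
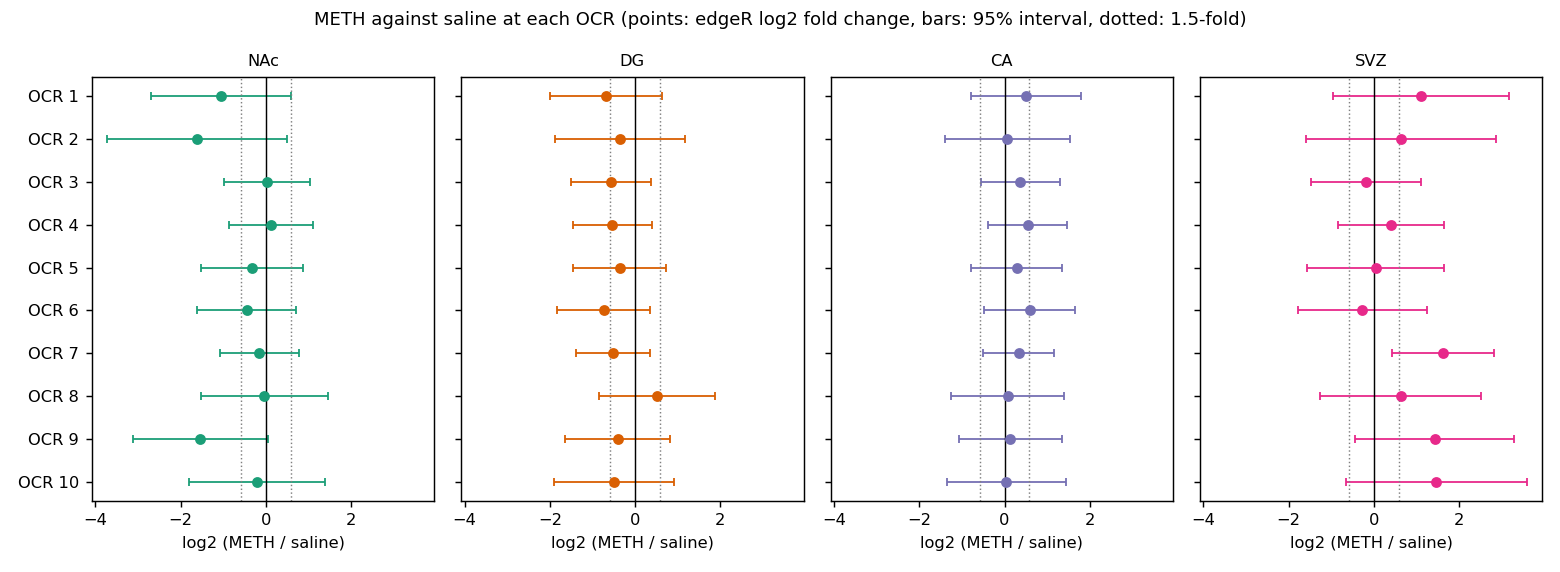
Log2 fold change of METH against saline (x axis) at each of the 10 OCRs (y axis) in each region by edgeR, with 95% intervals and dotted lines at 1.5-fold. The interval includes 0 at every OCR in NAc, DG and CA, and at every OCR but OCR 7 in SVZ.

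NAc, where the window was little open, gave estimates of both signs, 8 of 10 below 0 where 50.7% of all OCRs were, with a median of -0.27 against -0.01 for all OCRs. With TMM 7 and with loess offsets 6 of the 10 were below 0. The largest was at OCR 2, a log2 fold change of -1.61 (SE 1.03, edgeR FDR about 1.000), where METH libraries held 0.201, 0.185, 0.185 and 0.0777 CPM and saline libraries 0.682, 0.509, 0.682 and 0.154 CPM. Saline replicate 4 overlapped the METH libraries, and these values stand for 1 to 10 counts per library. At OCR 4 the METH libraries held 4.63, 4.43, 11.3 and 3.34 CPM and the saline libraries 3.12, 8.66, 6.68 and 3.31 CPM, a log2 fold change of 0.12 (SE 0.48, edgeR FDR about 1.000). METH replicate 3 was the highest NAc library at OCR 4, and leaving it out gave a log2 fold change of -0.40. The median of the 10 was 0.16 without saline replicate 2 and -0.79 without METH replicate 3. It was -1.11 within name set 1 alone and 0.15 within name set 2 alone, so the sign depended on the set of libraries.

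In SVZ, OCR 7 had the largest METH estimate of the window, a log2 fold change of 1.63 (SE 0.59), with an edgeR FDR of about 1.000 and an unadjusted p of 0.00980 in the fit over all OCRs. OCR 7, in the cluster inside the gene, held 2.99 and 2.68 CPM in the METH libraries and 0.739, 1.56 and 0.354 CPM in the saline libraries. The lower METH library exceeded the highest saline library. This was so at 4 of the 10 OCRs (OCR 1, OCR 7, OCR 9 and OCR 10), and at 10.6% of all OCRs. Counts were low, 26 and 31 against 3 to 18 at OCR 7, and the log2 fold change was 1.28 without saline replicate 3 and 2.34 without saline replicate 2.

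Over the 10 OCRs of SVZ, 8 were above 0, as were 49.5% of all OCRs, with a median of 0.64 against -0.01, and 7 were with loess offsets. OCR 4 held 9.83 and 8.04 CPM after METH and 7.39, 8.95 and 3.90 CPM with saline, which overlapped, a log2 fold change of 0.40 (SE 0.61, edgeR FDR about 1.000). The saline libraries had top-decile shares of 47.2 to 52.3% and the METH libraries 46.5 and 47.1%. With that share as a covariate the median of the 10 was 0.20, and with the name set as a covariate 0.35. Name set 1 held a single SVZ library, saline replicate 1, and within name set 2 the median was 0.50. METH replicate 2 carries an additional tag in its library name, and without it the median was 1.14, while without METH replicate 1 it was 0.25.

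NAc stayed lower than CA at all 10 OCRs, with 6 of the 10 called in the METH libraries (7.36% of all OCRs): OCR 1, OCR 2, OCR 4, OCR 6, OCR 7 and OCR 9. Their log2 fold changes ran from -4.74 at OCR 2 to -1.83 at OCR 7. NAc was lower than DG at all 10 with 2 called (4.17% of all OCRs), OCR 2 at -3.75 and OCR 9 at -3.50. OCR 1, OCR 2 and OCR 9 had called peaks in DG or CA libraries only. Their calls against NAc are therefore not independent of how they came to be in the table. DG stood above the mean of the other regions at all 10 OCRs but 0 were called, where 0% of all OCRs were, and DG was below CA at all 10, with a median of -0.57 where saline libraries gave 0.21. Neither of these DG to CA comparisons called an OCR. For the METH libraries, the share of all OCRs on the same side and the median of all OCRs are not given here. The directions and medians of the 10 therefore cannot be set against the table as a whole. In the test of any difference between the regions, 4 of the 10 were called in METH libraries (6.95% of all OCRs), OCR 2, OCR 6, OCR 7 and OCR 9, of which OCR 9 was also called in saline libraries.

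**Figure D5:**
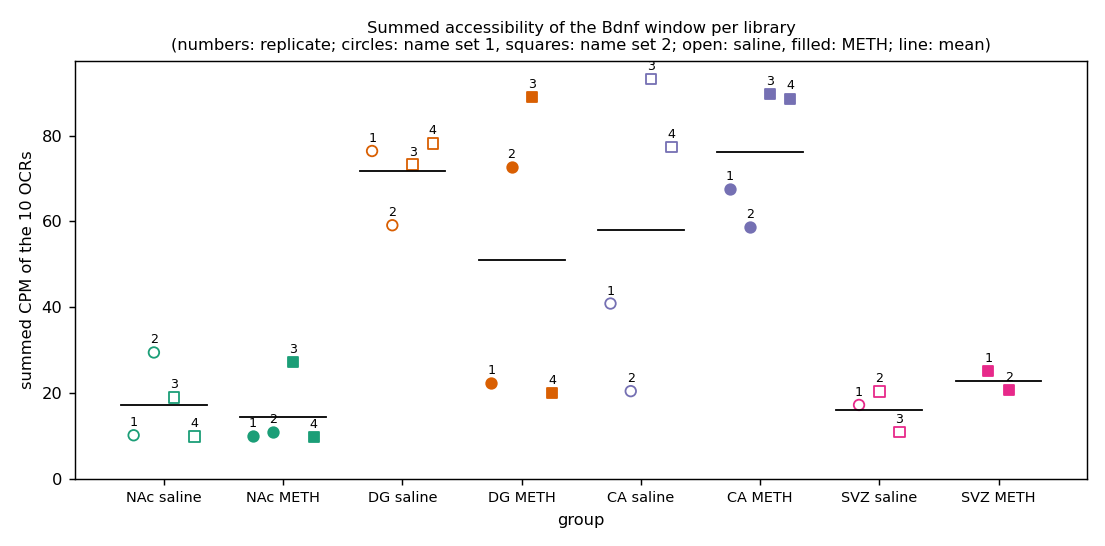
Summed accessibility of the 10 OCRs (y axis, CPM) in each library by group (x axis), with replicate numbers, circles for name set 1, squares for name set 2, open symbols for saline, filled for METH and lines for means. DG METH replicates 1 and 4 are at 22.4 and 19.9 CPM, near the NAc and SVZ libraries, while replicates 2 and 3 are at 72.7 and 88.9 CPM.

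The sum over the window shows which libraries carried these differences. DG METH held 22.4, 72.7, 88.9 and 19.9 CPM in replicates 1 to 4, a mean of 51.0 ± 35.1 CPM (SD, n = 4), and CA METH held 67.6, 58.7, 89.7 and 88.7 CPM, a mean of 76.2 ± 15.5 CPM (SD, n = 4). NAc METH held 9.87, 11.0, 27.3 and 9.80 CPM and SVZ METH 25.1 and 20.6 CPM. The METH minus saline difference in DG was -20.2 CPM in name set 1 and -21.3 CPM in name set 2, each with 2 against 2 libraries. In CA it was 32.5 CPM in name set 1 and 3.87 CPM in name set 2, and in NAc it was -9.36 and 4.15 CPM. The called peaks in the window followed the sum: 1 and 3 peaks in DG METH replicates 1 and 4, 7 and 11 in replicates 2 and 3, and 6 to 11 in DG saline. Over the whole genome replicates 1 and 4 also had the fewest peaks of the DG libraries, 58378 and 63363. Replicates 2 and 3 had 73126 and 83483, and DG saline 64678 to 86852. The part of this library-wide difference in the window was not tested.

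The 10 OCRs moved together from library to library. Over the 29 libraries, which share regions, animals and depth, Pearson's r of log2 CPM between pairs of the 10 ran from 0.60 to 0.92 with a median of 0.80 over 45 pairs. Against OCR 4, OCR 3 had r = 0.92 and OCR 6 r = 0.91, and OCR 2 was the least alike with r = 0.73, where the median over all OCRs, computed in the same way, was -0.02. After removing the group means, so that region and treatment no longer enter, r with OCR 4 ran from 0.35 at OCR 2 to 0.81 at OCR 6. This r was not computed over all OCRs, and library-wide differences within a group still enter it.

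Outside the window, the 3 OCRs most like OCR 4 over the 29 libraries lay on other chromosomes. They were chr9:117817296-117818685 with r = 0.961, chr17:27926161-27927243 with r = 0.960 and chr2:12900793-12901996 with r = 0.959. The first held 13.9 CPM in DG saline, 11.2 in DG METH, 11.7 in CA saline and 16.3 in CA METH as group means, against 3.48 in NAc saline and 3.84 in SVZ saline. At OCR 4 the group means were 29.7, 20.5, 20.4 and 29.8 CPM in DG saline, DG METH, CA saline and CA METH, and 5.44 and 6.74 CPM in NAc and SVZ saline. Which genes lie there was not analysed.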

How the data were processed

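ATAC-seq was done on 29 libraries of 4 brain regions after METH or saline. The authors aligned reads to rn6 with the AIAP pipeline, used mergeBed to make consensus OCRs over regions and conditions, and deposited raw read counts per OCR. The deposited peak lists, made by the authors for each library, hold fold enrichment and −log10 q. Per the labels, bedtools and rn6 were used.

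The 10 OCRs were taken by position, and the members and lists were chosen with earlier results of these data known. Counts were scaled by upper quartile and tested with edgeR 4.0.16 (quasi-likelihood, limma 3.58.1, R 4.3.3) over all 98237 OCRs, with Benjamini-Hochberg FDR. METH was compared with saline within regions in a fit of all 29 libraries (fold above 1.5, FDR under 0.001), and regions in the 15 saline libraries (log2 fold change beyond 1, FDR under 0.01). These thresholds follow the study's methods, which add RUVr factors without stating how many, and 1 and 5 of them were tried as alternatives. A filter of 1 CPM in 2 libraries kept all 98237 OCRs. DESeq2 1.42.0 was an alternative. Named were the OCR with the highest mean CPM per kb, the largest METH change in each region and the highest value of each region against the others. Fits were tested on simulated data.

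Replicate numbers were checked for pairing: deviations from group means of 14 METH and saline pairs with the same number had r from -0.26 to 0.69, 7 of them over 0.1. These values do not settle whether the numbers pair METH with saline libraries. The METH and saline animals differ, and the main fits used no block by number. Within a treatment a number marks 1 animal across NAc, DG and CA, while in SVZ only saline replicate 1 shares the animal of its number. Over the 39 pairs of libraries from 1 animal by the names in the peak lists, SVZ included, r ran from -0.43 to 0.66, with 15 over 0.1. P-values measure the spread between these libraries. No 2 libraries of a group agreed within sampling noise.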

Additional observations from a re-analysis of the deposited data

Results flagged for a closer look

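In 60 combinations of an OCR and a group of 4 libraries, 4 held a library far from the other 3, and chance gives about 1 in 20. OCR 2 held 0.0777 CPM in NAc METH replicate 4, where the others held 0.185 to 0.201 CPM. These values stand for a count of 1 against 2 in each of the others, so the gap is at the floor of counting. In CA saline replicate 3 OCR 2 held 11.5 CPM, where the others held 0.722 to 2.49 CPM. OCR 3 held 0.617 CPM in NAc saline replicate 4 against 1.27 to 1.32 CPM in the others. OCR 4 held 11.3 CPM in NAc METH replicate 3 against 3.34 to 4.63 CPM in the others.

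At 4 OCRs, all METH libraries of one region lay on one side of the saline mean and all METH libraries of another region on the other side. At each of the 4, SVZ with only 2 METH libraries was among the regions compared. The share of all OCRs with such a pattern was not computed, so the count has no background. The log2 fold change of OCR 1 was -1.05 in NAc and 1.11 in SVZ, and that of OCR 9 was -1.53 in NAc and 1.43 in SVZ. OCR 3 had 0.37 in CA and -0.19 in SVZ, and OCR 6 had 0.60 in CA and -0.27 in SVZ. These differences were not tested. OCR 6 also had -0.74 in DG against 0.60 in CA, and the interaction test of that difference gave an edgeR FDR of 0.547. CA METH replicate 3 held 4 peaks in the window outside the 10 OCRs, where saline libraries held at most 3.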

How the results depend on the processing

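Counts below are OCRs called of the 10. With 5 RUVr factors METH against saline in DG and the DG to CA difference of METH effects gave 1 each, rather than 0. DESeq2 gave 8 for any difference between regions in saline libraries, 4 for DG and 1 for CA against the other regions, 5 for NAc against DG, 4 for NAc against CA, 5 for SVZ against DG and 5 for SVZ against CA. In the test of any difference DESeq2 also called more of all OCRs, 14483 against 7375 in the main fit. TMM gave 0 for DG against the others and 1 for SVZ against DG. METH libraries in place of saline gave 0 for DG (0% of all OCRs) and 1 for CA (1.19%) against the others, 6 for NAc against CA (7.36%) and 0 for SVZ against DG (0.51%). Leaving out 1 library at a time gave 2 to 6 for any difference, 0 to 2 for DG and 0 to 1 for CA against the others, 1 to 3 for NAc against DG, 0 to 4 for NAc against CA, 0 to 3 for SVZ against DG and 0 to 3 for SVZ against CA. For any difference these fits called from 4187 to 9549 of all OCRs. For the other comparisons with DESeq2, with TMM or with 1 library left out, calls over all OCRs are not given here. Those counts therefore cannot be set against a share of all OCRs. The causes were not tested.

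The log2 fold change of OCR 4, METH against saline in NAc, was 0.12, and it turned to -0.37 within name set 1 and -0.00696 with 5 RUVr factors, and ran from -0.40 to 0.42 when 1 library was left out.

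With the replicate number as a block, METH against saline gave 0 calls in each region, with a median of -0.35 for NAc, -0.61 for DG, 0.39 for CA and 1.06 for SVZ. With the animal as a block, added after seeing the data for the DG to CA difference, the median of that difference was -0.997. In the saline libraries the animal block gave 1 for SVZ against DG and changed no other count by over 1.5 times.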
